A study of Mus musculus with 4 samples.

Results

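The cells described here were the high-Dcx cells of the lateral ganglionic eminence (LGE) that held Ebf1, a group labelled as Ebf1 striatal projection neurons. They were chosen by measured values. Barcodes of the LGE library entered only if over 1500 but under 4500 genes were detected in them and if mitochondrial and Hbb UMIs stayed below 5% and 1%, where a UMI (unique molecular identifier) marks 1 captured RNA molecule. Of the kept cells, those with ln(1 + UMIs per 10000) of Dcx above 1.5 were called high-Dcx, and those of them with 2 or more Ebf1 UMIs were the Ebf1 cells. There were 513 Ebf1 cells among 2198 high-Dcx cells, 4810 kept LGE cells and 16544 kept cells of all 4 libraries. The 1583 high-Dcx LGE cells with 0 Ebf1 UMIs served as the comparison, and the 102 cells with 1 Ebf1 UMI were in neither group.

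All libraries came from wild-type C57BL/6 mouse embryos at E12.5, with 1 droplet (10x Genomics) library each for the LGE, the medial (MGE) and caudal (CGE) ganglionic eminences and the cortex (CTX). The tissue of a library was pooled over several embryos of both sexes, no animal carried a transgene or received a treatment, and no region had a replicate. GEO's labels describe a sort for live cells by DRAQ5 and DAPI, whereas the study's methods mention sorting for transgenic tissue and only counting for wild-type tissue, so whether these cells were sorted is not settled, and a sort could bear on every share of cells below. Within the LGE no test was possible, and the intervals below are 95% intervals that cover counting error only.

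The ganglionic eminences are the ventral swellings of the embryonic forebrain, and the LGE gives rise to the projection neurons of the striatum. These neurons are GABAergic and send their axons either directly to the output nuclei of the basal ganglia (direct pathway, marked in the adult by Drd1, Tac1 and Pdyn) or to the external pallidum (indirect pathway, marked by Drd2 and Penk). Ebf1, a helix-loop-helix transcription factor, and Isl1, a LIM homeodomain factor, are known for their part in the direct pathway, and Six3 and Sp9 for theirs in the indirect pathway. Dcx encodes doublecortin, a microtubule protein of young migrating neurons.

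The LGE library held 6704 barcodes and 46461868 UMIs, within the range of 4301 to 6953 barcodes and 31451467 to 49794765 UMIs over the 4 libraries. Between 4 and 15 barcodes were shared by any 2 libraries, and 1 Ebf1 cell of the LGE carried such a barcode. The median depth was 6763 UMIs and 2891 genes per Ebf1 cell against 6396 UMIs and 2714 genes per Ebf1-zero cell, and the median mitochondrial share was 2.05% against 1.96%. Vessel and myeloid genes were near 0 in the Ebf1 cells, whereas erythroid genes were present at a like level in both groups. Of 6 endothelial markers 4 were at 0, of 10 mural and mesenchymal markers 8 and of 6 myeloid markers 5, and the summed levels of these lists in CPM (UMIs of a gene per 1000000 UMIs of the summed cells) were 0.8002, 1.07 and 0.267. The 7 erythroid genes summed to 79.5 CPM in Ebf1 cells and 80.8 CPM in Ebf1-zero cells.

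Ebf1 cells made up 23.3% (21.6 to 25.2%) of the high-Dcx cells of the LGE, and the same rule found 92 of 2272 cells (4.05%, 3.28 to 4.94%) in the MGE, 156 of 2330 (6.70%, 5.71 to 7.79%) in the CGE and 10 of 816 (1.23%, 0.589 to 2.24%) in the CTX. The number of Ebf1 UMIs per member ran from 2 to 55 with a median of 16, and 365 of the 513 cells held 10 or more while 29 held the minimum of 2. Free RNA can place UMIs in cells that do not express a gene. Among the 589 kept LGE cells with high Nes (nestin, a marker of radial glia, the neural stem cells of the ventricular wall) and without high Dcx, 12 cells (2.04%, 1.06 to 3.53%) held 2 or more Ebf1 UMIs. The highest count in a cell of this group was 32 Ebf1 UMIs, so the share does not measure free RNA alone. The Dcx limit did not enclose all Ebf1 RNA of the library, since the members held 8474 of the 14840 Ebf1 UMIs of the kept cells. Just inside the limit, the 60 Ebf1 cells with Dcx between 1.5 and 1.6 had 817 CPM of Isl1 and 181 CPM of Tac1, and just outside it, the 46 Ebf1 cells between 1.4 and 1.5 had 879 and 450 CPM.

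**Figure D1:**
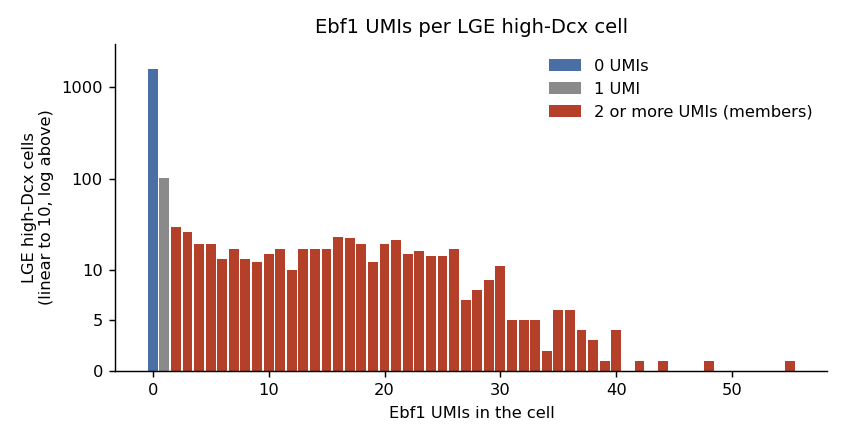
Number of high-Dcx cells of the LGE (vertical axis, linear to 10 and logarithmic above) by Ebf1 UMIs per cell (horizontal axis). The 1583 cells at 0 are the comparison cells, the 102 cells at 1 belong to neither group, and the members reach from 2 to 55 UMIs.

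The genes given as markers of these cells were checked first, as a description of cells that were chosen on Ebf1 itself. Isl1 stood at 862 CPM in Ebf1 cells and 180 CPM in Ebf1-zero cells, a ratio of 4.79 (4.52 to 5.06). Zfp503 (Nolz1, a zinc finger factor of the striatal mantle) stood at 461 and 192 CPM, a ratio of 2.41 (2.26 to 2.57), and Zfhx3, a large zinc finger and homeobox factor, at 867 and 339 CPM, a ratio of 2.56 (2.44 to 2.68). Tac1, the precursor of substance P, stood at 383 and 5.16 CPM, a ratio of 74.2 (56.9 to 98.4). All 4 markers were at least 2-fold higher in the Ebf1 cells, beside 4.30% of the 4046 genes at 50 or more CPM in either sum that were 2-fold higher and 6.43% that were 2-fold lower. The median log2 ratio over those 4046 genes was 0.01. When cells with a UMI of Lhx6, Lhx8, Neurod2, Neurod6, Tbr1, Pax6 or Sp8 (genes of other lineages) were left out of both groups, the ratios of Zfp503 and Zfhx3 were 1.44 and 1.79, below 2-fold.

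To set shares of positive cells side by side, each cell was thinned at random to 3000 UMIs, which kept 507 Ebf1 cells, 1545 Ebf1-zero cells and 571 high-Nes cells and left out 6, 38 and 18 shallower ones. Isl1 was then detected in 79.3% (75.5 to 82.7%) of Ebf1 cells, 22.0% of Ebf1-zero cells and 5.78% of high-Nes cells, and at full depth in 90.8% and 27.9% of the first 2 groups. Zfp503 was detected in 66.7%, 29.8% and 3.68% of the thinned cells and Zfhx3 in 78.7%, 46.6% and 18.4%. Tac1 was detected in 11.2% (8.63 to 14.3%) of Ebf1 cells, 1.29% of Ebf1-zero cells and 0.175% of high-Nes cells. Thus Tac1 RNA lay in a minority of the cells, 77 of 513 at full depth (15.01%, 12.0 to 18.4%), and 75 of those 77 also held Isl1. At least 1 UMI of Isl1, Zfp503, Zfhx3 or Tac1 was present in 498 of the 513 cells (97.1%), and a UMI of Gad1, Gad2 or Dlx5, genes of GABAergic neurons, in 502 (97.9%).

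Of the adult markers of the direct pathway, Tac1 was present and Drd1 and Pdyn were low or at 0. Drd1, the dopamine D1 receptor, stood at 13.6 CPM in Ebf1 cells and 3.99 CPM in Ebf1-zero cells, and Pdyn, the dynorphin precursor, had 0 UMIs in both. Of the 10 genes listed for the direct pathway 4 passed the level filter of 50 CPM, and 3 of them (Isl1, Tac1 and Sox8) were 2-fold higher in Ebf1 cells. Sox8, an SRY-box factor, stood at 84.3 and 4.89 CPM, a ratio of 17.2 (12.9 to 23.5), and it was detected in 20.5% of thinned Ebf1 cells, 1.10% of Ebf1-zero cells and 14.2% of high-Nes cells. Mef2c, a MADS-box factor, stood lower, at 37.3 and 63.7 CPM. The adult markers Drd2, Penk and Gpr6 of the indirect pathway had 0 UMIs in the Ebf1 cells, and they were below the filter of 50 CPM in the Ebf1-zero cells as well.

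The 3 filtered genes of the indirect pathway were all 2-fold lower in Ebf1 cells. Six3, a homeobox factor, stood at 34.7 CPM in Ebf1 cells and 545 CPM in Ebf1-zero cells, a ratio of 0.0637 (0.0531 to 0.0757). Sp9, a zinc finger factor of newborn GABAergic neurons, stood at 39.7 and 588 CPM, a ratio of 0.0676 (0.0571 to 0.0796), and Grik3, a kainate receptor subunit, at 27.2 and 86.7 CPM. Six3os1, a transcript antisense to Six3, stood at 7.20 and 131 CPM. The study's methods name the default settings of Cell Ranger, under which a read antisense to a gene is not counted for it. A UMI of Six3 or Sp9 was found in 88 of the 513 Ebf1 cells (17.2%, 14.0 to 20.7%) and in 1403 of the 1583 Ebf1-zero cells (88.6%).

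Genes shared by both kinds of striatal projection neuron were mixed in direction. Of 12 such genes past the filter, 6 were 2-fold higher, among them Foxp1, Bcl11b, Zfp503, Zfhx3 and Rarb, 1 was 2-fold lower and 5 were neither, with a median log2 ratio of 1.05. Foxp1, a forkhead factor, stood at 773 and 214 CPM (3.62-fold), and Bcl11b (Ctip2), a zinc finger factor of long-range projection neurons, at 1976 and 876 CPM (2.26-fold). Rarb, the retinoic acid receptor beta, stood at 72.0 and 7.61 CPM (9.47-fold). Meis2, a TALE homeobox factor, stood at 2881 and 2574 CPM (1.12-fold).

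From in situ hybridization, the study describes 5 genes together in the mantle of the ventral LGE, and it chose them on data that include this library. It places Ebf1 in that region too, but less tightly restricted. The levels given here hold no position in the tissue. Of these 5 genes, Zfp503 and Zfhx3 were 2-fold higher in Ebf1 cells, and Mpped2, a metallophosphoesterase, was lower at 645 and 1790 CPM. Neither Pcsk1n (119 and 83.8 CPM) nor Aldh1a3 (145 and 125 CPM) passed 2-fold. Aldh1a3 encodes an enzyme that makes retinoic acid. Of 6 filtered genes of retinoic acid synthesis and signalling, Crabp1, a retinoic acid binding protein, was higher beside Rarb, at 57.1 and 4.53 CPM (12.6-fold), and none was 2-fold lower.

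**Figure D2:**
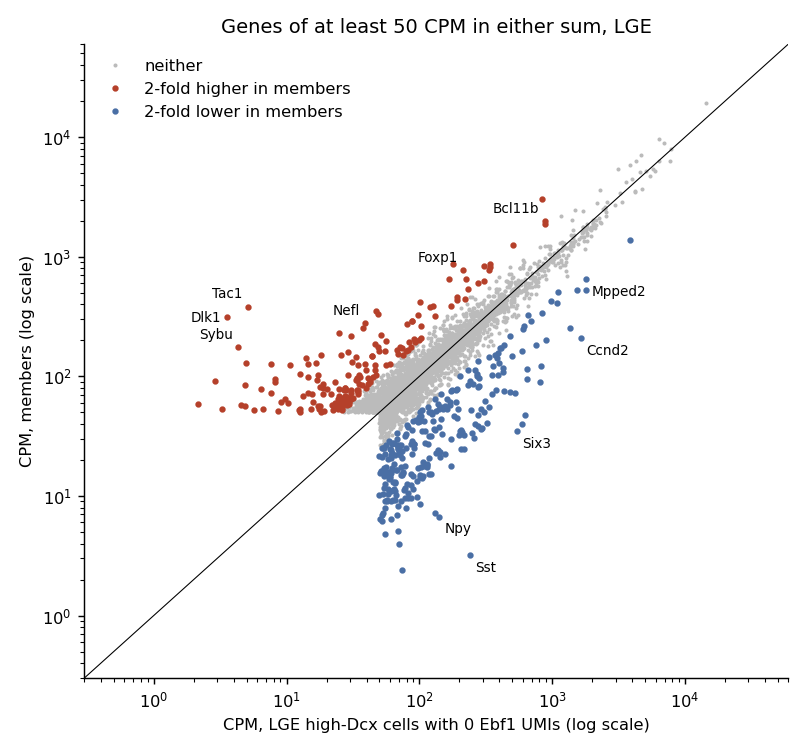
Level of each gene in the 513 Ebf1 cells (vertical axis, CPM, log scale) against that in the 1583 Ebf1-zero high-Dcx cells of the LGE (horizontal axis, CPM, log scale), with 1 point per gene past the level filter and the line of equal level. Red points are the 174 genes 2-fold higher in Ebf1 cells, with Dlk1 and Tac1 farthest from the line, and blue points the 260 genes 2-fold lower, with Sst farthest.

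The 20 genes with the highest ratios were Dlk1, Tac1, Sybu, Dlc1, Grb14, Cntn5, Sox8, Vstm2a, Rph3a, Crabp1, Cnr1, Mgat4c, Sowaha, Sorcs3, Hs6st2, Cpne5, Rarb, Rgs2, Tmeff2 and Ephb1, from 89.0-fold for Dlk1 to 8.73-fold for Ephb1. Dlk1, a membrane protein related to the Notch ligands and encoded at chr12:109452823-109463336 (GRCm38, plus strand), stood at 314 CPM in Ebf1 cells and 3.53 CPM in Ebf1-zero cells, a ratio of 89.0 (64.7 to 126). Sybu, which encodes syntabulin, a linker of axonal cargo to kinesin, stood at 174 and 4.35 CPM. Cnr1, the cannabinoid receptor CB1, stood at 77.9 and 6.43 CPM, Rgs2, a regulator of G protein signalling, at 228 and 24.9 CPM, and Ephb1, a receptor for ephrins, at 126 and 14.5 CPM. The list thus joined a peptide precursor and receptors with genes of axonal transport, adhesion (Cntn5) and the synapse (Rph3a).

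Some genes of the growing axon were higher. Of 16 cytoskeletal genes, all past the filter, 4 were 2-fold higher (Nefl, Ina, Stmn4 and Gap43), 12 were neither and none was 2-fold lower, with a median log2 ratio of 0.68. Nefl, the light neurofilament chain, stood at 278 and 39.2 CPM (7.10-fold), and Gap43, a protein of the growth cone, at 381 and 120 CPM (3.16-fold). Of 7 filtered guidance receptors 3 were 2-fold higher: Robo1 at 216 and 30.7 CPM, Robo2 at 418 and 101 CPM, both receptors for Slit proteins, and Ephb1. Of 12 filtered adhesion genes 6 were 2-fold higher, among them L1cam (144 and 33.3 CPM), and Ncam1 and Pcdh9 were 2-fold lower. Of 10 filtered genes of transmitter release 3 were 2-fold higher, with Syt4, a synaptotagmin, at 151 and 18.0 CPM (8.36-fold), and of 7 filtered channel and receptor genes 3 were 2-fold higher, with Scn3a, a sodium channel of embryonic neurons, at 176 and 48.5 CPM (3.63-fold). In cells limited to low Nes, Hes5, Mki67, Ccnd1 and Ccnd2 (a mantle gate after the study) the ratios of Ina and Mapt were 1.18 and 0.707 against 2.91 and 1.90 without it, and those of Stmn4, Robo2 and Scn3a (1.86, 1.96 and 1.54) were also below 2-fold, while that of Robo1 was 4.14.

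All 15 filtered genes of the dividing cell were 2-fold lower in Ebf1 cells, with a median log2 ratio of -2.62. Top2a, topoisomerase II alpha, stood at 88.8 and 805 CPM (0.110-fold), Ccnd2, a G1 cyclin, at 208 and 1637 CPM (0.127-fold), and Mki67, a protein of cycling cells, at 37.1 and 297 CPM (0.125-fold). Mki67 above 0.5 on the ln scale was found in 42 Ebf1 cells (8.19%, 5.96 to 10.9%) and in 552 Ebf1-zero cells (34.9%). Progenitor genes followed the same direction: of 6 filtered genes of neurogenic progenitors 4 were 2-fold lower, with Insm1, a zinc finger factor of newborn neurons, at 143 and 381 CPM (0.376-fold, and 1.46-fold under the mantle gate), and of 7 radial glia genes 4 were lower, with Sox2 at 47.5 and 627 CPM. Of 9 filtered Dlx and GABA genes, Dlx1, Dlx2 and Gad1 were 2-fold lower (Gad1 at 0.478-fold, but 0.532-fold with Dcx above 1.0) and Dlx6 2-fold higher. Dlx2, a homeobox factor of early GABAergic cells, stood at 94.96 and 642 CPM, Dlx6, its later relative, at 172 and 73.7 CPM, and Gad2, an enzyme of GABA synthesis, at 810 and 576 CPM.

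Since the comparison cells held more dividing cells, both groups were limited by the mantle gate, which left 185 Ebf1 cells and 361 Ebf1-zero cells and removed cells with Mki67, Ccnd1 or Ccnd2 by construction. Of 4002 genes, 2.72% were then 2-fold higher and 2.55% 2-fold lower. The 20 highest named genes were all 2-fold higher, which is a description only, since their ratios in the ungated groups, which include these cells, chose them. Bcl11b, at 1.46-fold, was not 2-fold higher. Isl1 stood at 932 and 273 CPM (3.41-fold), Zfhx3 at 937 and 248 CPM (3.78-fold) and Tac1 at 363 and 11.1 CPM (32.7-fold). Of the 174 genes higher without the gate 81 were higher with it, and of the 260 lower genes 56 were lower with it. Of the 15 genes lowest without the gate 11 were still 2-fold lower with an interval below 1, and Sapcd2, Aurka, Nuf2 and Aspm were not. No level filter was applied to these 15 genes. Top2a stood at 14.6 and 20.8 CPM with the gate, a ratio of 0.703 (0.382 to 1.25) against 0.110 without it.

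The 15 genes with the lowest ratios were Sst, Nxph1, Npy, Six3os1, Ackr3, Six3, Sp9, Maf, Sox2, Sp8, Sapcd2, Aurka, Nuf2, Aspm and Tshz1. Several of them mark other neurons that share the eminences. Sst (somatostatin), the lowest, stood at 3.20 and 241 CPM (0.0133-fold), Npy (neuropeptide Y) at 6.67 and 141 CPM and Maf, a factor of interneurons born in the MGE, at 5.07 and 69.1 CPM. All 6 filtered genes of MGE interneurons and all 4 of the dorsal LGE (Sp8, Pax6, Etv1 and Tshz1) were 2-fold lower. Lhx6, the defining factor of MGE interneurons, was found in 2 Ebf1 cells (0.390%) and 182 Ebf1-zero cells (11.5%). Against the 633 Ebf1-zero cells that held 2 or more Six3 UMIs, where Sst was at 8.69 CPM, the Sst ratio was 0.368 (0.176 to 0.714). In that comparison 5.33% of 4087 genes were 2-fold higher and 7.54% 2-fold lower, and Isl1 stood at 862 and 144 CPM, a ratio of 5.998. All 20 highest genes were 2-fold higher. Without a level filter, 13 of the 15 lowest were 2-fold lower (all but Nxph1 at 0.539-fold and Maf at 0.703-fold). These counts are a description, since ratios of the same Ebf1 cells chose the genes. Six3 chose the comparison cells, so its place among the 13 was set by the rule. Six3os1, antisense to Six3, is also among the 13.

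The remaining lists held few filtered genes or moved little. Of 16 neuronal RNA-binding and transcription factors past the filter, Rbfox1, a splicing factor, was 2-fold higher (149 and 43.8 CPM, 3.39-fold, but 1.29-fold under the mantle gate), and Zeb2 (118 and 424 CPM), Tcf4 (103 and 389 CPM) and Satb1 (31.5 and 78.4 CPM) were 2-fold lower, with a median log2 ratio of -0.14. Zeb2 and Satb1 are factors of migrating and maturing interneurons. Of 7 neuropeptide and granin genes Tac1 was higher and Sst and Npy lower, of 3 guidance ligands Efnb1, a membrane ligand of Eph receptors, was lower (113 and 261 CPM, but 0.694-fold under the mantle gate), and of 2 genes of CGE interneurons Sp8 was lower. No gene of the cholinergic, Cajal-Retzius or EBF family lists passed the filter, Ebf1 aside. Chat, the enzyme of acetylcholine synthesis, had 0 UMIs in both groups, as had Trp73, a Cajal-Retzius marker, and Ebf2 and Ebf3, the relatives of Ebf1, had 0 UMIs in the Ebf1 cells, where Ebf4 stood at 2.93 CPM.

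Sequences upstream of the start sites are shown for Dlk1 and Tac1, the genes with the highest ratios, and, as examples that hold a motif match, for Cnr1, the gene among the highest with the EBF core, and for 3 genes of the dividing cell. These 4 examples were chosen after the matches were seen. They are the 150 bases before the start site (for Cnr1 from 200 to 51 bases before it) on the gene's strand, from RefSeq on GRCm38.p6, and capitals mark a motif match on either strand.
Tac1, chr6:7554911-7555060, plus strand: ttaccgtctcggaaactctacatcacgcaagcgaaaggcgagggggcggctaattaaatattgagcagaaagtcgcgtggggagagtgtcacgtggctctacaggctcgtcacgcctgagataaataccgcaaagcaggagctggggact
Dlk1, chr12:109452673-109452822, plus strand: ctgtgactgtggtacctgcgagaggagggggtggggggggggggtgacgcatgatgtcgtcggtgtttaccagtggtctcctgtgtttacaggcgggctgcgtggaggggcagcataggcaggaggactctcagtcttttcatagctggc
Cnr1, chr4:33924064-33924213, plus strand: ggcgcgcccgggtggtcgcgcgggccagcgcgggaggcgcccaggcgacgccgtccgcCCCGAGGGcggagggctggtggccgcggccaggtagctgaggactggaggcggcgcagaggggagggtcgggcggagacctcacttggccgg
Cdk1, chr10:69352913-69353062, minus strand: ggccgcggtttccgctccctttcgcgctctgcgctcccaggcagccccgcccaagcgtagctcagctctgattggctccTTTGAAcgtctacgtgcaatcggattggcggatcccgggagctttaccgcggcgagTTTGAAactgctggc
Ube2c, chr2:164769779-164769928, plus strand: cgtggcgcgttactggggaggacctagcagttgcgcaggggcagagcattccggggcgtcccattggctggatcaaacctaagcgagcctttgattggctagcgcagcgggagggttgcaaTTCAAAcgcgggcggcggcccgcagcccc
Top2a, chr11:99024190-99024339, minus strand: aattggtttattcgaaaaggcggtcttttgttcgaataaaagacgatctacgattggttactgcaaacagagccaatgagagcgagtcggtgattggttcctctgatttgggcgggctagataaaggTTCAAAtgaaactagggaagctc

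Within windows of 300 bases around 32851 RefSeq start sites, the letters CCCNNGGG, the core bound by EBF factors, were found in 13.7% of all windows. They were found in 2 of the 26 windows (7.69%) of the 17 matched genes among the 20 highest, both of Cnr1. Among the 15 lowest, 13 genes were matched, and 1 of their 15 windows (6.67%) held the core, that of Sapcd2. Of the 13 windows of the listed genes of the dividing cell 0 held it. The letters TTTGAA, the core of the cell cycle homology region, were found in 17.9% of all windows and in 7 of 13 windows (53.8%) of the listed genes of the dividing cell. They were found in 4 of the 26 windows (15.4%) of the highest genes. In the lowest genes they were in 7 of the 15 windows (46.7%), those of Aspm, Aurka, Nxph1, Six3os1, Sox2, Sp8 and Sp9. Of the 35 genes with the highest or lowest ratios 30 had an entry, and both motifs were searched on both strands. A match describes letters and not a bound site.

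The level of several genes differed with the number of Ebf1 UMIs over the high-Dcx LGE cells, which is given as a description because Ebf1 chose the groups. Isl1 stood at 180, 338, 440, 730, 583 and 960 CPM in cells with 0, 1, 2, 3 to 4, 5 to 9 and 10 or more Ebf1 UMIs. Foxp1 stood at 214, 163, 145, 235, 416 and 944 CPM, and Tac1 at 5.16, 2.83, 15.01, 3.46, 214 and 482 CPM. Foxp1 and Tac1 were thus high only in the cells with 5 or more Ebf1 UMIs among these bins, while Isl1 was already higher in cells with 1 UMI than with 0. Aldh1a3 had the opposite end: it stood at 125, 171, 325, 270, 314 and 86.5 CPM, lowest in the cells richest in Ebf1. Six3 stood at 545, 361, 75.1, 86.5, 53.9 and 22.6 CPM. Neurod6, one of the genes of other lineages named above, stood at 3.89, 97.7, 35.0, 152, 88.6 and 0 CPM. The bins thus differed in make-up, and the part of this in the other values was not tested. The cells with 1 Ebf1 UMI lay nearer to the Ebf1-zero cells in Six3 and Top2a (654 against 805 CPM), and the median depth of the 6 bins lay between 6103 and 6968 UMIs.

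**Figure D3:**
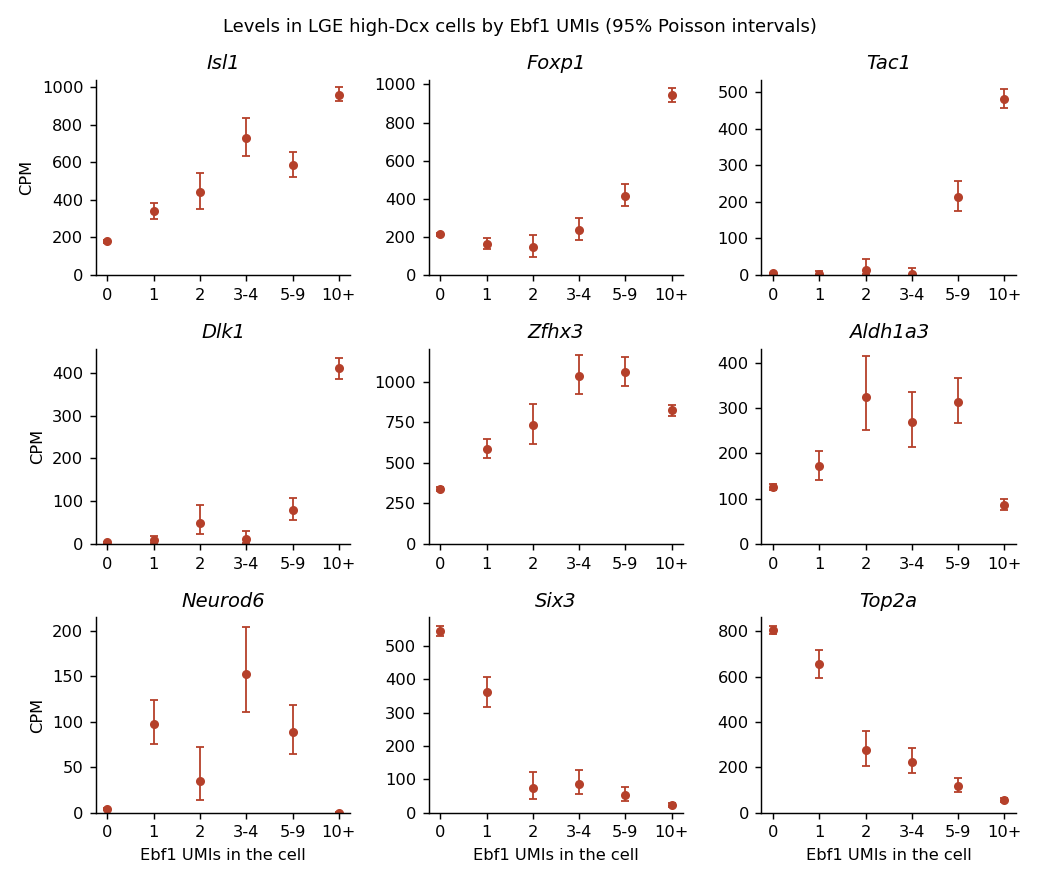
Level (vertical axes, CPM with 95% counting intervals, linear scales that differ between panels) of 9 genes in high-Dcx LGE cells by Ebf1 UMIs per cell (horizontal axes, 0 to 10 or more). Tac1 and Foxp1 stand highest in the last bin (482 and 944 CPM), and Six3 lowest there (22.6 CPM).

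Dlk1 split the Ebf1 cells into 2 groups of similar number, 235 cells with a UMI and 278 without, and the cells with Dlk1 were deeper (median 7411 against 6358 UMIs) and richer in Ebf1 (median 20 against 11 UMIs). Tac1 stood at 739 CPM in cells with Dlk1 and 23.6 CPM in cells without it, a ratio of 31.4 (23.2 to 43.4). Nefl stood at 520 and 34.8 CPM (14.9-fold), and Foxp1 at 1240 and 303 CPM (4.09-fold). Isl1 differed less, at 1013 and 710 CPM (1.43-fold), and Bcl11b hardly, at 2054 and 1898 CPM (1.08-fold). The cells without Dlk1 had the higher levels of Aldh1a3 (237 against 53.1 CPM), Zfhx3 (1098 against 638 CPM) and Zfp503 (554 against 369 CPM), and also of Top2a (159 against 19.1 CPM). A split by a UMI of 1 gene sorts cells partly by depth, and the part of depth in these values was not tested. The 77 cells with Tac1 were deeper still (median 8390 against 6667 UMIs in the other Ebf1 cells), with Dlk1 at 807 against 201 CPM, Nefl at 854 against 145 CPM and Zfhx3 at 501 against 951 CPM.

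**Figure D4:**
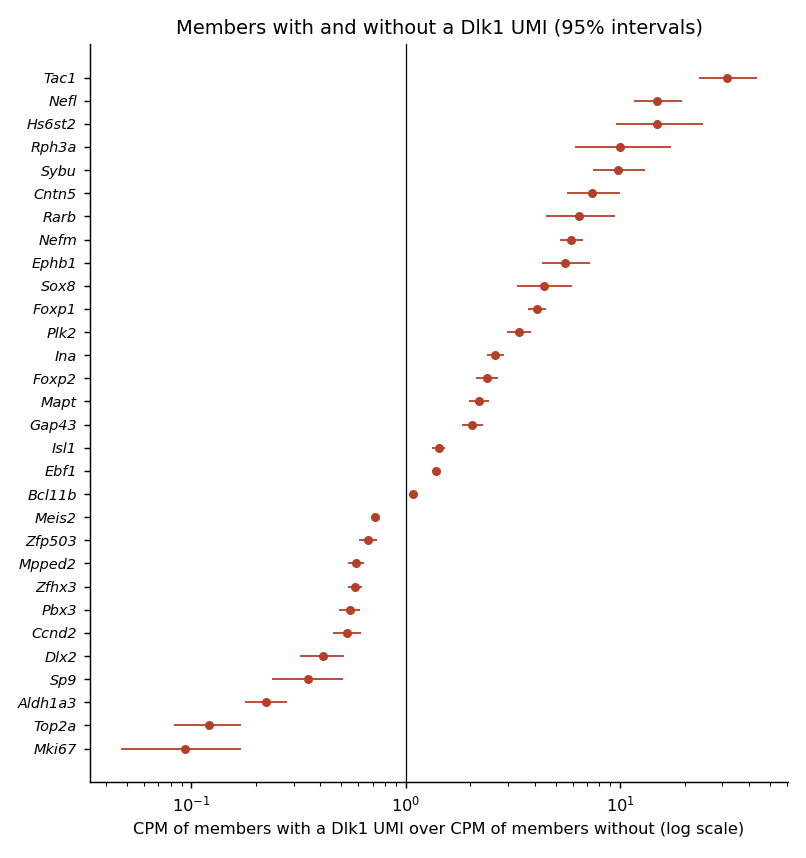
Ratio of CPM (horizontal axis, log scale, with 95% counting intervals) in the 235 Ebf1 cells of the LGE with a Dlk1 UMI over the 278 without, with 1 row per gene. Tac1, Nefl and Foxp1 stand higher with Dlk1, and Aldh1a3, Zfhx3 and Top2a stand higher without it.

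Some Ebf1 cells did not have the genes of the label. Isl1 had 0 UMIs in 47 cells, whose median Ebf1 count was 6 UMIs against 17 in the cells with Isl1. Of these, 15 (2.92% of the 513) held Neurod2 or Neurod6, factors of glutamatergic cortical neurons, with Neurod2 at 955 CPM. In these 15 cells Isl1, Zfp503, Tac1, Sp9 and Dlx2 had 0 UMIs, and their median Ebf1 count was 4 UMIs. Neurod2 or Neurod6 was found in 9 Ebf1-zero cells (0.569%), and the 10 glutamatergic genes listed summed to 100.0 CPM in Ebf1 cells and 20.6 CPM in Ebf1-zero cells. These 15 cells go against the label. Removing them with the other cells of the lineage genes above left the 20 highest genes 2-fold higher. That count is a description, since groups that include the remaining cells chose those genes. The 42 cells with Mki67 had Isl1 at 535 CPM against 898 CPM in the other Ebf1 cells, and Dlx2 at 363 against 65.9 CPM.

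The MGE and CGE libraries, which the rule did not use, held Ebf1 cells of their own, which were set beside those of the LGE. The 3 groups differed in make-up. A UMI of Isl1 was found in 90.8% of the Ebf1 cells of the LGE, 85.9% of the MGE and 66.7% of the CGE. Neurod2 or Neurod6 was found in 2.92%, 0% and 30.8% of them. In the MGE 8.65% of 4174 genes were 2-fold higher and 5.49% lower in Ebf1 cells, and in the CGE 3.75% of 4057 were higher and 2.83% lower. Of the 20 genes highest in the LGE, 20 were 2-fold higher in the MGE and 19 in the CGE, and of the 15 lowest 13 were 2-fold lower in each. Dlk1 stood at 287 and 32.6 CPM in the MGE and at 217 and 41.0 CPM in the CGE. Isl1 stood at 862, 945 and 908 CPM in the Ebf1 cells of the LGE, MGE and CGE. In the Ebf1-zero cells it stood at 180, 18.1 and 43.5 CPM. Tac1 stood at 383, 15.04 and 3.83 CPM in the Ebf1 cells and at 5.16, 3.03 and 17.7 CPM in the Ebf1-zero cells. Only the Ebf1 cells of the LGE were thus high in Tac1.

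**Figure D5:**
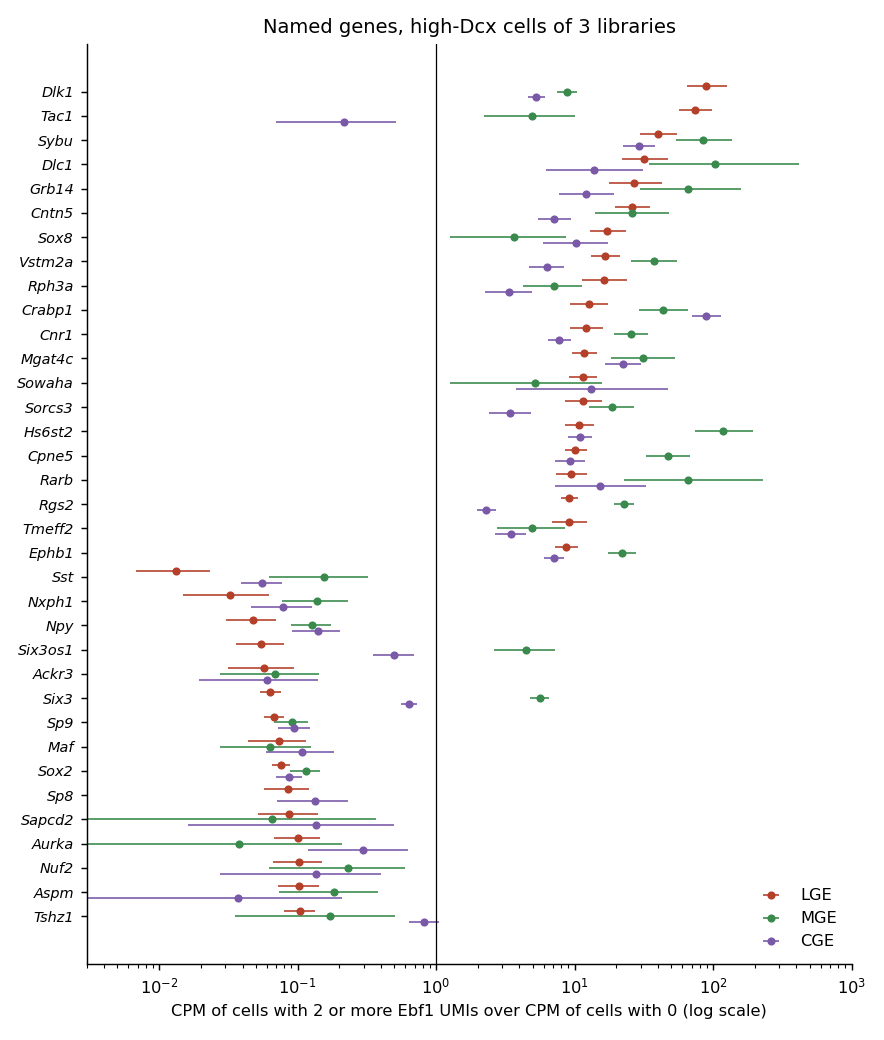
Ratio of CPM, Ebf1 cells over Ebf1-zero cells (horizontal axis, log scale, with 95% counting intervals), for the 20 highest and 15 lowest genes of the LGE in the LGE, MGE and CGE libraries. A sum of 0 UMIs (Sp8 in the MGE) is not drawn. Tac1 in the CGE and Six3 and Six3os1 in the MGE lie on the other side of 1 from the LGE.

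A test over libraries asked which genes differed alike in the eminences. In the MGE and CGE alone, edgeR's quasi-likelihood test with library as a block called 3.55% of 12699 genes higher and 2.54% lower with Ebf1 at a Benjamini-Hochberg adjusted p below 0.05, and 18 of the 20 highest and 12 of the 15 lowest genes of the LGE were among them in the same direction. There Isl1 was higher by 5.02 on the log2 scale (adjusted p = 0.000123), Dlk1 by 2.76 (adjusted p = 0.000252), Zfp503 by 4.14 (adjusted p = 0.00117), Zfhx3 by 3.64 (adjusted p = 0.00744) and Foxp1 by 1.42 (adjusted p = 0.0254). Sp9 fell by 3.44 (adjusted p = 0.000103) and Top2a by 3.28 (adjusted p = 0.000123). Tac1 had a log2 fold change of -0.08 (adjusted p = 0.983) and Six3 one of 0.88 (adjusted p = 0.497). This fit has 4 sums and 1 residual degree of freedom, and its p-values measure the spread between 2 libraries of different regions.

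With the LGE included (6 sums), 6.86% of 12368 genes were called higher and 6.34% lower. The LGE sums, whose ratios chose the 20 highest and 15 lowest genes, are part of this fit, so its values for those genes are a description. Isl1 rose by 4.09 ± 0.62 (SE, adjusted p = 0.00742) and Bcl11b by 0.96 ± 0.12 (adjusted p = 0.00318) on the log2 scale. Dlk1 had a log2 fold change of 3.75 ± 0.68, Crabp1 one of 5.28 ± 0.52 and Sybu one of 5.41 ± 0.27. Tac1 did not pass, with 2.96 ± 1.49 (adjusted p = 0.248), nor did Six3, Six3os1 and Tshz1, with -0.69 ± 1.15 (adjusted p = 0.756), -1.74 ± 0.99 (adjusted p = 0.307) and -1.90 ± 0.58 (adjusted p = 0.0779). Of the listed genes, 14 of 16 of the dividing cell and 10 of 11 of MGE interneurons fell, and 11 of 16 cytoskeletal genes rose. Of the 15 tested genes common to striatal neurons 9 rose and 1 (Meis1) fell. Without the LGE 6 of the cytoskeletal genes rose and Meis1 did not pass, and under the mantle gate Map1b, Tubb2b, Stmn3, Crmp1, Dpysl3, Ina and Gap43 did not pass. Of the 17 guidance ligands tested 7 rose, with Sema3c at 3.84 ± 0.25 (adjusted p = 0.000304), while in the LGE alone 0 of 3 filtered ligands were 2-fold higher. Of the 9 glutamatergic genes tested 8 rose, with Neurod6 at 3.499 ± 0.36 (adjusted p = 0.00289). Neurod2 or Neurod6 was present in 48 of the 156 Ebf1 cells of the CGE and in 0 of the 92 of the MGE, where a count of 0 allows a share of up to 3.26%.

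Set against the Ebf1 cells of the other eminences, those of the LGE had 0.913-fold the Isl1 level of the MGE (0.838 to 0.996), and the ratio to the CGE lay between 0.888 and 1.02. Other genes differed more. Tac1 was found in 3 of 92 Ebf1 cells of the MGE and 3 of 156 of the CGE. In the LGE it was 25.5-fold (13.8 to 53.2) the MGE level and 100.0-fold (42.8 to 309) the CGE level. Foxp1 was 8.86-fold and 3.04-fold, Meis2 2.80-fold and 3.64-fold and Sox8 9.34-fold and 3.80-fold those levels. Aldh1a3, at 145 CPM in the LGE, had 0 UMIs in the Ebf1 cells of the MGE and CGE. The cytoskeletal genes Ina (0.404-fold and 0.4885-fold) and Mapt (0.463-fold and 0.512-fold) were below the MGE and CGE levels, and Ccnd2 was above them (2.305-fold and 6.18-fold). Nr2f1 (COUP-TFI), a factor with a caudal gradient, stood at 74.4 CPM in the LGE against 510 and 1178 CPM, and Six3 at 34.7 CPM against 307 and 177 CPM. Each region had 1 library, so region and library cannot be told apart in these values. The share of Ebf1 cells with Neurod2 or Neurod6 also differed, at 2.92% in the LGE, 0% in the MGE and 30.8% in the CGE. Its part in these values was not tested.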

How the data were processed

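Single-cell droplet RNA-seq of E12.5 wild-type LGE, MGE, CGE and CTX was analysed, 1 library each. The deposited unit was the raw UMI count per gene and barcode, from Cell Ranger against mm10 (version 3.0.2 in the matrix header, 3.0.0 in the submitters' processing notes). The study's methods name default settings. The annotation release is not given in the sources used here, and gene positions are those of GENCODE on GRCm38.

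UMI counts were summed per library and group and scaled to CPM. Ratios carry exact conditional binomial intervals and shares exact Clopper-Pearson intervals. Genes at 50 or more CPM in either sum were called at 2-fold or 0.5-fold with an interval on 1 side of 1. Named genes were the 20 highest and 15 lowest ratios, without Ebf1, Dcx, mitochondrial and haemoglobin genes. Of 341 symbols in 29 gene lists 338 were matched, and some listed genes are counted but not reported here by name. The members and lists were chosen with earlier results of these data known. Sums over LGE, MGE and CGE were tested with edgeR 4.0.16 (TMM scaling, filterByExpr, library as a block, Benjamini-Hochberg adjustment over all genes, log2 fold change of 0.25 or more in size, Ebf1 and Dcx left out) in R 4.3.3, with DESeq2 1.42.0 as an alternative. Doublets were kept, and an alternative removed the highest simulated-doublet scores (0.8% per 1000 barcodes, 34 members). Sums and intervals were computed in Python 3.11.15 with numpy 2.4.6, scipy 1.17.1, pandas 2.3.3 and scikit-learn 1.9.0, and the plots were drawn with matplotlib 3.10.9. The ratio rule and the edgeR fit were tested on simulated data.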

Additional observations from a re-analysis of the deposited data

Results flagged for a closer look

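In 3 genes the Ebf1 cells of another eminence lay on the other side of the Ebf1-zero cells from those of the LGE, and the difference between libraries was not tested. Tac1 was 0.217-fold (0.0698 to 0.512) in the CGE and 74.2-fold in the LGE. The CGE value rests on few molecules, since Tac1 was found in 3 of the 156 Ebf1 cells there, at 3.83 CPM. Its interval covers counting error only. Six3 was 5.58-fold (4.76 to 6.52) in the MGE and 0.0637-fold in the LGE, and Six3os1, antisense to it, was 4.46-fold (2.61 to 7.26) in the MGE and 0.0548-fold in the LGE.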

How the results depend on the processing

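The share of Ebf1 cells among high-Dcx LGE cells was 28.0% with 1 or more Ebf1 UMIs as the limit, 20.3% with Dcx above 2.0 and 20.5% after thinning to 3000 UMIs. The 174 higher and 260 lower genes of the LGE became 109 and 102 under the mantle gate, 370 and 442 with a level filter of 20 CPM, 81 and 141 with 100 CPM and 1014 and 1114 with no filter, where more or fewer genes were tested. Under the mantle gate 51.7% of the calls were higher against 40.1% without it. With cells of other lineages left out, 2 of the 4 markers stayed 2-fold higher. In the LGE under the mantle gate the log2 ratio turned to 0.45 for Dll3, 0.55 for Insm1, 1.11 for Mcm3, 0.28 for Pcna, -0.09 for Sv2a, 0.58 for Tyms and 0.03 for Vim. Across the eminences edgeR called 849 genes higher and 784 lower (DESeq2 812 and 615), 499 and 407 with Dcx above 2.0, 399 and 392 after thinning, 162 and 134 under the mantle gate, and 1313 lower with no filter beyond 1 UMI. Leaving out 1 library gave 451 to 863 higher and 322 to 783 lower genes, the lowest of both without the LGE. The log2 fold change turned to 0.30 for Insm1, 0.11 for Mcm5 and 0.03 for Tyms under the mantle gate and to -1.31 for Nr2f1 with other lineages left out. Apart from what is shown by construction, the cause was not tested. Adding the CTX was not run, because it held 10 Ebf1 cells, fewer than 20. Library was a block in each edgeR fit, which pairs the sums of Ebf1 and Ebf1-zero cells of a library. With 1 library per region there was no further replicate number to block on.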

Other observations

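Ebf1 was also found below the Dcx limit. Of 2612 kept LGE cells without high Dcx, 391 (14.97%, 13.6 to 16.4%) held 2 or more Ebf1 UMIs. In these cells Isl1 stood at 870 CPM against 862 CPM in the members, Bcl11b at 1794 against 1976 CPM and Six3 at 36.6 against 34.7 CPM. Tac1 stood at 595 against 383 CPM, Dlk1 at 557 against 314 CPM, Nefl at 446 against 278 CPM and Foxp1 at 1106 against 773 CPM. Aldh1a3 stood at 51.0 against 145 CPM, Zfp503 at 325 against 461 CPM, and Top2a at 187 against 88.8 CPM.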
